A study of Caenorhabditis elegans with 2 samples.

Results

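The genes for nuclear hormone receptors were examined as possible targets of ZTF-26, a zinc finger protein of the nematode Caenorhabditis elegans. They were chosen by name alone, as the protein-coding genes of the Ensembl WBcel235 annotation whose names start with nhr-, and there were 269 of them among 19973 protein-coding genes. The binding data came from chromatin immunoprecipitation and sequencing (ChIP-seq) with an anti-GFP antibody on whole worms of strain OP565. These worms carried the unc-119(tm4063) mutation on chromosome III and the transgene wgIs565, from which ZTF-26 was made with a GFP and FLAG tag at its C terminus. Young adults of mixed sex were collected, 56 hours after the starved L1 stage at which they had been synchronized. The samples formed 1 group of 2 biological replicates, numbered 3 and 4. Both came from 1 transgenic line, whole worms were used, so the cells of origin cannot be told apart, and no untagged or control library was analysed here.

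Nuclear hormone receptors are transcription factors that bind DNA through a zinc finger domain and, in many cases, respond to small lipophilic ligands such as steroids and fatty acids. Nematodes have far more of these genes than insects or vertebrates, and most of the extra genes descend from an ancestral receptor of the HNF4 type through repeated duplication, much of it on chromosome V. A small number have clear relatives in other animals. Known roles in the worm include fat metabolism, the response to vitamin B12 shortage, detoxification, moulting and developmental timing.

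The deposited peak lists give for each peak a signal, which is the authors' own value on a scale not given in the sources used here, and the position of its summit. The pooled list, called from both replicates together, held 28233 candidates, and the optimal list of reproducible peaks held the 1929 of these with the highest signal, from 90.2 to 1104. The authors describe the candidate lists as peaks and background, so a candidate outside the optimal list is not by itself a bound site. A receptor gene was said to have a peak when an optimal summit lay between 1000 bp upstream and 500 bp downstream of the 5′ end of any of its transcripts. No test between samples was possible with 1 group, and genes are not replicates, so counts are given beside the same counts over all protein-coding genes. The files give no read counts, and the depth of the libraries is unknown.

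The summit with 50 bases on each side is shown for several of the strongest peaks at receptor genes, since these carry the binding described below, and for nhr-256, which shares words with nhr-119 and nhr-1. All are on ce11 and read 5′ to 3′ on the plus strand. Capitals mark, on either strand, AGGTCA (the core element bound by many nuclear receptors), CACGTG (the E-box core), and any of the words chosen with earlier results known, which were ACGCAGA (the first of an overlapping set), CTGCGTC (its neighbour in that set), GAGACGC (the last of that set) and the repeat word CTCTCTC.
nhr-68 at V:11572997-11573097: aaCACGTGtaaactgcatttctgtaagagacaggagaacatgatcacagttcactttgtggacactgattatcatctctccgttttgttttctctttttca
nhr-47 at V:5505184-5505284: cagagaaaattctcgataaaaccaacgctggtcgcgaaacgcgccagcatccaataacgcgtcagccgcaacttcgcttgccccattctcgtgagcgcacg
nhr-114 at V:4186523-4186623: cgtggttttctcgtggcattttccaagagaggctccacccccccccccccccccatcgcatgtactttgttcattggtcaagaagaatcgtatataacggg
nhr-119 at II:2800975-2801075: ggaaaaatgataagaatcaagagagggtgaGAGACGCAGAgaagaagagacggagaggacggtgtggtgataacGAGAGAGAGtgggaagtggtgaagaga
nhr-1 at X:17513719-17513819: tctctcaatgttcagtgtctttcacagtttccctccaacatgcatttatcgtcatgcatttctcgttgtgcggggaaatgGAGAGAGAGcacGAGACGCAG
nhr-256 at V:1743666-1743766: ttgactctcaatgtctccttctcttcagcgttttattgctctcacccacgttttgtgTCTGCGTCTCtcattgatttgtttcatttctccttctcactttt

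The windows at nhr-47 and nhr-114 held none of the 6 words, and the window at nhr-68 held only an E-box near its edge. The 3 words of the overlapping set are shifted readings of a single stretch, which the windows of nhr-119 and nhr-256 hold on opposite strands. At least 1 of these 3 words lay in 6 of 20 receptor windows (30%), against 11.5% of the 1909 other optimal windows and 3.66% of the 26304 lower-ranked windows. The E-box was in 1 receptor window (5.00%), against 8.28% of the other optimal windows, and AGGTCA was in 1 (5.00%), against 3.09%. CTCTCTC was in 3 (15%), against 9.85%. Of the 20 windows, 11 held none of the 6 words. With 20 windows these shares are a description of where the letters lie. The median GC content was 46.5% in the receptor windows and 46.5% in the other optimal windows.

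Of the 269 receptor genes, 20 had an optimal peak (7.43%, 95% exact Clopper-Pearson interval 4.60 to 11.2), against 5.69% of all protein-coding genes (1136 of 19973). The interval treats genes as independent and covers counting error only. Each of the 20 genes had its own peak, so the count rests on 20 separate sites. The count was then split by place in the genome, with runs on V chosen with earlier results of these data known. Runs of receptor genes on chromosome V, at least 3 genes with gaps of at most 20 kb, held 102 of the 269 genes, and none of these 102 had an optimal peak, for which the same exact interval runs to 3.55% (the limit set by a floor of 3 counts is 2.94%). Outside the runs, 7 of 65 receptor genes on V (10.8%, interval 4.44 to 20.9) and 13 of 102 on the other chromosomes (12.7%, 6.96 to 20.8) had one. Runs were sought on V alone, so closely spaced receptor genes on other chromosomes are counted off V. Examples are nhr-74, nhr-73 and nhr-259 on I, none of which had an optimal peak. The lack of peaks in runs therefore cannot be called particular to V. All protein-coding genes on V carried a peak at 4.00%, and those on the other chromosomes at 6.25%.

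**Figure D1:**
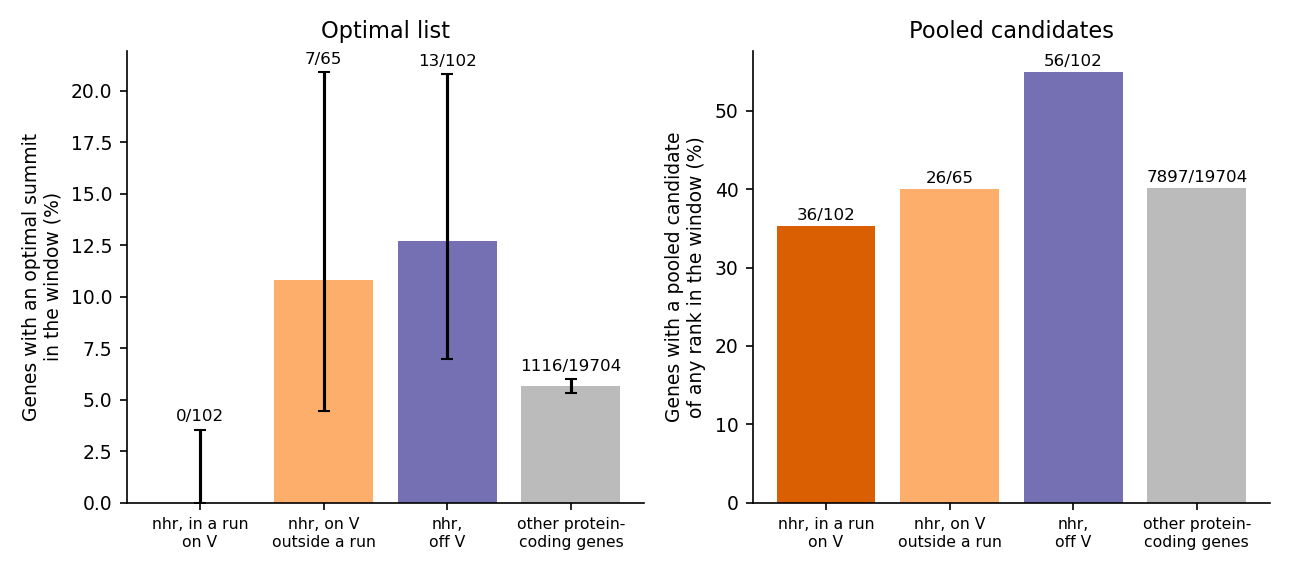
Share of genes with an optimal summit (left) and with a pooled candidate of any rank (right) in the promoter window, in percent on the vertical axis, for receptor genes in a run on V, on V outside a run and off V, and for the other protein-coding genes. Bars on the left carry 95% exact Clopper-Pearson intervals, and the fractions give genes with a summit over genes in all. No gene of the 102 in runs had an optimal summit, although 36 of them had a candidate.

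The strongest peak lay in the window of a receptor of metabolism and stress, nhr-68, but was nearer to another gene. Its summit was 57 bp upstream of H12C20.7 and 393 bp upstream of nhr-68. The peak at nhr-68, a receptor that with nhr-10 switches on an alternative propionate breakdown route when vitamin B12 is short, lay at V:11572897-11573182. Its signal was 283 in replicate 3, 148 in replicate 4 and 429 in the pooled list, where it ranked 49 of 28233. The next receptor peak, at nhr-47, had a pooled signal of 260. The list of metabolism and stress receptors, chosen with earlier results of these data known, had a peak at 4 of its 11 genes, beside 5.69% of all protein-coding genes, and the other 3 peaks had lower signal.

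The peak at nhr-114, which protects the germline on certain bacterial diets, was at V:4186353-4186792, inside an intron of Y45G5AM.9. Its signal was 99.3 in replicate 3, 50.05 in replicate 4 and 146 in the pooled list. The peak at nhr-57, a gene induced by low oxygen through HIF-1, had a signal of 75.8 in replicate 3, 41.7 in replicate 4 and 105 in the pooled list. These 3 genes ranked within the top 1929 of both replicates' own lists. The peak at nhr-49, a receptor of fat metabolism with roles like those of vertebrate PPAR-alpha, was the weakest of the 20. It had a signal of 56.5 in replicate 3, 34.6 in replicate 4 and 91.3 in the pooled list, ranked 1886 of the 1929 optimal peaks, and ranked 2108 and 2410 in replicates 3 and 4. It alone among the 20 lay outside the 1929 strongest peaks of both replicates. The other members of this list had candidates below the optimal list, apart from nhr-13, which had none, and the strongest of these were at nhr-66 (pooled signal 79.7) and nhr-80 (78.2), both partners of NHR-49.

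A list of 10 receptors with an nhr- name and clear relatives outside nematodes was chosen in the same way. It leaves out receptors without an nhr- name, such as daf-12, which are counted apart below. Of the 10, 3 had an optimal peak, beside 5.69% of all protein-coding genes. At 1 of the 3, nhr-41, the summit lay inside a tRNA gene. The peak at nhr-41, related to the vertebrate testicular receptors TR2 and TR4, had a signal of 72.2 in replicate 3, 43.2 in replicate 4 and 113 in the pooled list. That at nhr-85, related to Rev-erb and known for activating the microRNA gene lin-4, had a signal of 87.7 in replicate 3, 23.8 in replicate 4 and 112 in the pooled list. That at nhr-48, of the group that holds daf-12 and the vertebrate vitamin D receptor, had a signal of 76.3 in replicate 3, 29.4 in replicate 4 and 104 in the pooled list. The nhr-41 peak, which cannot be given to the receptor rather than the tRNA gene, was in the top list of both replicates, and those at nhr-85 and nhr-48 were in that of replicate 3 alone. The moulting receptor nhr-23 had a candidate of signal 52.6 and its partner in moulting nhr-25 one of 24.1, near the lowest of the pooled list (22.3), whereas nhr-67, which acts in vulval and anchor cell development, had none. Of 7 receptors of development and moulting, also listed with earlier results known, nhr-85 was the single gene with an optimal peak.

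The remaining 13 peaks lay at receptors with no role stated here, apart from nhr-14, which controls iron uptake in the intestine. The strongest was at nhr-47, at V:5505151-5505279, with a signal of 191 in replicate 3, 73.4 in replicate 4 and 260 in the pooled list (rank 173). It was followed by nhr-35, with 142 in replicate 3, 61.6 in replicate 4 and 210 in the pooled list (rank 304). Below these 2 the pooled signals fell close together. The peak at nhr-119 had a pooled signal of 145, that at nhr-1 141, that at nhr-135 134, that at nhr-34 127, that at nhr-142 126 and that at nhr-255 125. The peaks at nhr-17, nhr-256, nhr-105, nhr-14 and nhr-43 had pooled signals of 112, 106, 102, 93.4 and 92.9. The order of neighbours in this range was not stable between replicates. For example, nhr-135 ranked 564 in replicate 3 and 2620 in replicate 4, while nhr-17 ranked 3875 in replicate 3 and 344 in replicate 4.

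**Figure D2:**
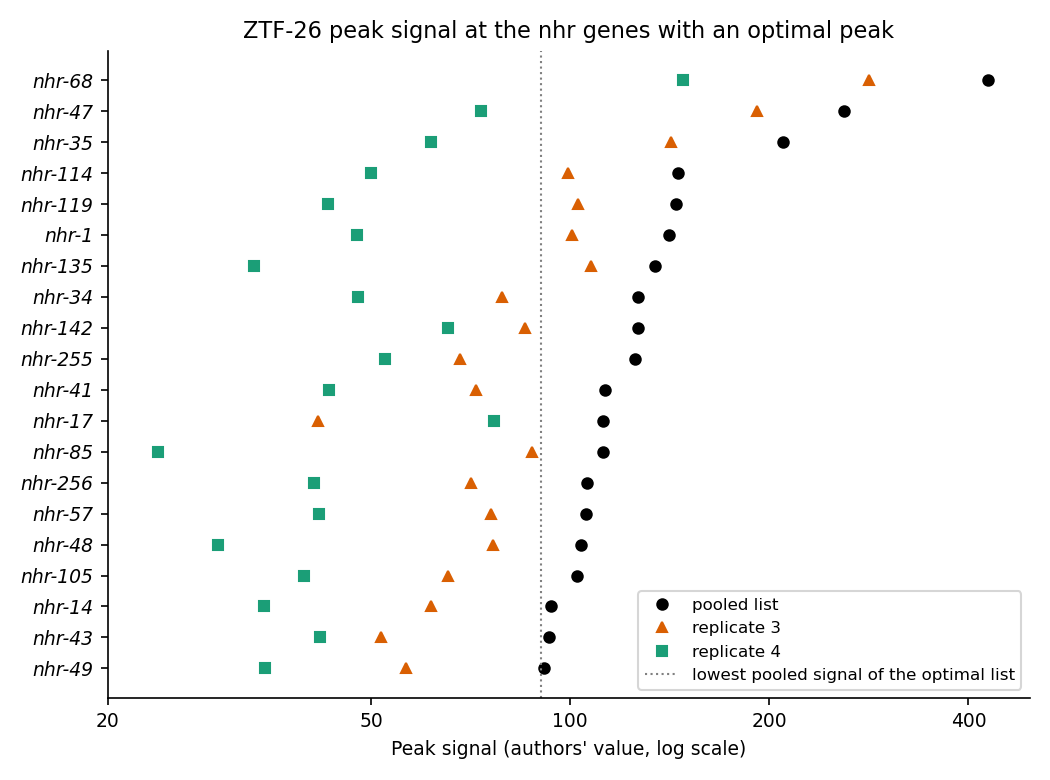
Peak signal, the authors' value on a log axis, at the 20 receptor genes with an optimal peak, in order of pooled signal from top to bottom. Circles are the pooled list, triangles replicate 3 and squares replicate 4, and the dotted line is the lowest signal of the optimal list (90.2). The nhr-68 peak stands apart at 429, and 13 of the 20 lie below the series median of 131.

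As a group the receptor peaks were of low to middling strength within the optimal list. Their pooled signal ran from 91.3 to 429 with a median of 119, against a median of 131 over the 1909 other optimal peaks and 133 over the 963 of these in a promoter window. The median rank of the 20 was 1149.5 of 1929, and 7 of 20 were above the median signal of the optimal list. Among the 965 strongest optimal peaks the count was 7 of 269 (2.60%), against 3.13% of all protein-coding genes.

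Replicate 3 gave the higher signal at 19 of the 20 receptor peaks. The ratio of replicate 3 to replicate 4 had a median of 1.80 at receptor peaks, from 0.542 at nhr-17 to 3.68 at nhr-85. At the other optimal peaks the median was 1.73, so a higher signal in replicate 3 was not particular to receptor peaks. The Spearman correlation of the 2 replicates' signals was 0.284 at receptor peaks, a value resting on 20 peaks, and 0.637 at the others. On the log2 scale the SD of the ratio was 0.59 across the 20 receptor peaks, and 0.48 across the 1898 other peaks that overlapped a candidate in both replicates. All 20 overlapped a candidate in both replicates, and 13 (65.0%) overlapped the top 1929 of both, against 69.9% of the other optimal peaks. In the top list of replicate 3, 21 receptor genes had a summit (7.81%), against 5.75% of all protein-coding genes. In that of replicate 4, 17 had one (6.32%), against 5.45%. The single-replicate lists added nhr-40, nhr-27, nhr-66 and nhr-193 in replicate 3, and nhr-50 and nhr-21 in replicate 4. No gene in a run on V had a summit of either top list in its window. The pooled candidate of the run member nhr-53 did overlap a top peak of replicate 4 (rank 1574, signal 41.6), whose summit lay outside the window.

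**Figure D3:**
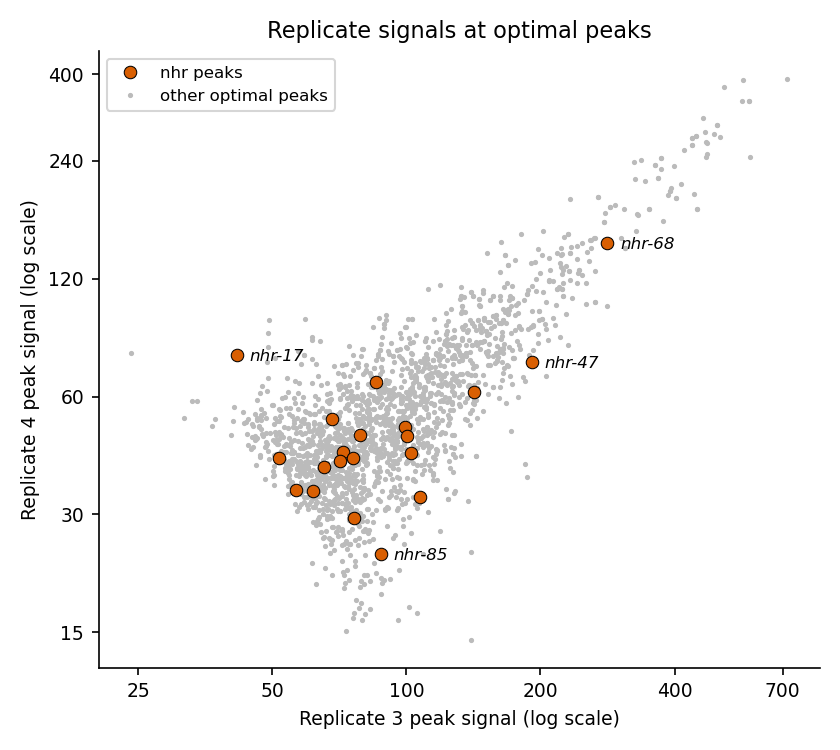
Signal of replicate 4 (vertical, log axis) against replicate 3 (horizontal, log axis) at the optimal peaks that overlapped a candidate in both replicates. Large circles are the 20 receptor peaks and small grey dots the 1898 others. The nhr-17 peak is high in replicate 4 (76.7) and low in replicate 3 (41.6), and the nhr-85 peak is low in replicate 4 (23.8).

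Most receptor peaks were upstream of the gene. The summit lay upstream of the nearest 5′ end of the gene in 18 of 20 cases (90%), against 86% for the 1116 other genes with a peak, at a median of 351 bp upstream, against 254 bp. The positions ran from 888 bp upstream of a 5′ end of nhr-85, where the summit is in an intron of the gene, to 162 bp downstream at nhr-41. The other downstream summit, at nhr-34, lay in a coding exon, 95 bp downstream of a 5′ end that is itself inside the gene. Of the 20 summits 12 were intergenic. For 18 of the 20 genes (90%) the receptor had the nearest protein-coding 5′ end, against 78.2% of the other genes with a peak.

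**Figure D4:**
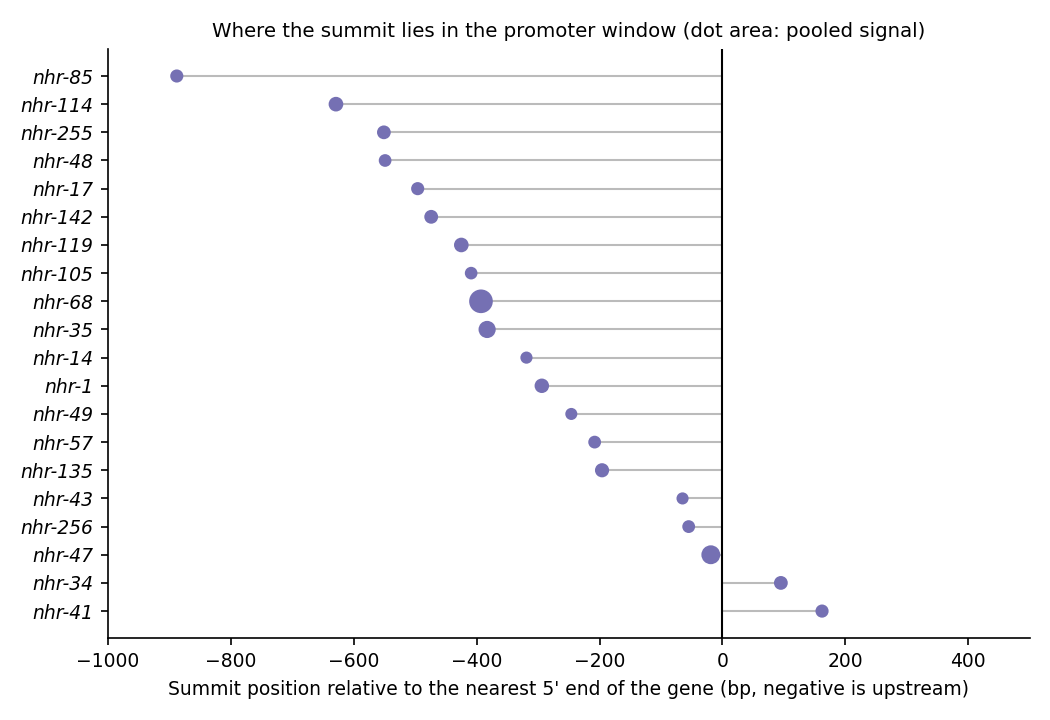
Position of the strongest optimal summit relative to the nearest 5′ end of each receptor gene, in bp along the gene's direction, with negative values upstream. Dot area is proportional to pooled signal. The 2 summits downstream of a 5′ end are at nhr-34 and nhr-41, and 14 of the 20 lie within 500 bp upstream.

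Sharing with another protein-coding gene was the exception, at 3 of 20 receptor genes (15%), against 41.2% of the other genes with a peak. The strongest 2 peaks were among them. The nhr-68 summit lay 393 bp upstream of nhr-68 and 57 bp upstream of H12C20.7, which is therefore the nearer gene. The nhr-47 summit lay 19 bp upstream of nhr-47 and 377 bp upstream of dnj-19, a DnaJ-type co-chaperone gene, and inside the non-coding RNA gene C24G6.10. The nhr-142 summit lay 474 bp upstream of nhr-142 and 203 bp upstream of F44E7.9. A peak in a shared window cannot be given to a single gene from these files. A further 6 receptor peaks had a non-coding gene in reach and no other protein-coding one, with piRNA genes left out of this count. The remaining 11 summits were in the window of no other gene, although that at nhr-114 lay inside an intron of Y45G5AM.9.

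A pair of receptor peaks had their summit inside a transfer RNA gene, and 50 bases on each side are shown because these summits cannot be given to the receptor gene rather than the tRNA gene. Capitals mark the bases inside the tRNA gene, on ce11, plus strand, 5′ to 3′.
nhr-255 at X:15742009-15742109: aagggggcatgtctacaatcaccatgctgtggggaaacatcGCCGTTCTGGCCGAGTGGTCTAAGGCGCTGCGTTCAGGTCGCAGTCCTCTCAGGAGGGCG
nhr-41 at IV:1388209-1388309: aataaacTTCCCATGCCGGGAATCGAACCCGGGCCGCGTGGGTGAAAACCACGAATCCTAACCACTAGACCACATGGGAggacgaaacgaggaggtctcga

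At nhr-255 the summit was 551 bp upstream of the receptor gene and 9 bp into the tRNA gene WBGene00014626. At nhr-41 it was in an intron of the receptor gene, 162 bp downstream of a 5′ end and 28 bp into the tRNA gene WBGene00023202, which is on the minus strand. A summit within 100 bp of a tRNA gene was found at 2 of the 20 receptor genes (10%), against 6.18% of the 1116 other genes with a peak. With peaks within 100 bp of a tRNA gene left out, 18 receptor genes had a peak, against 5.33% of all protein-coding genes. Near-identical tRNA genes can share reads, so which copy these peaks belong to is uncertain.

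The 102 receptor genes in runs formed 17 runs of 3 to 12 genes on V, which together spanned 442369 bp, or 2.11% of the chromosome. A pooled candidate of any rank lay in the window of 36 of the 102 genes (35.3%), against 40% of receptor genes on V outside a run, 54.9% of those off V, 32.6% of the other protein-coding genes on V and 40.1% of all protein-coding genes. In number, the share in runs was below that of other receptor genes and above that of other genes on the same chromosome. No interval was made for these shares, so their order is a description only. Of the 36 strongest candidates in runs, 29 (80.6%) had a −log10 q-value under 1, against 79.9% of all pooled candidates. The strongest candidates of genes in runs had a median signal of 37.2. This was close to 37.5 for the other protein-coding genes on V with a candidate, and 39.4 over all protein-coding genes with one. The highest in runs was 85.2 at nhr-178, ranked 2145 in the pooled list. Next was nhr-237 of the same run, at 83.8 (rank 2211), then nhr-42 (72.0), nhr-56 (70.7) and nhr-59 (68.6) in other runs. In 5 of the 17 runs no gene had a candidate. The largest run, 12 genes at V:451451-497297, had candidates at 8 genes, all at or below 49.8.

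**Figure D5:**
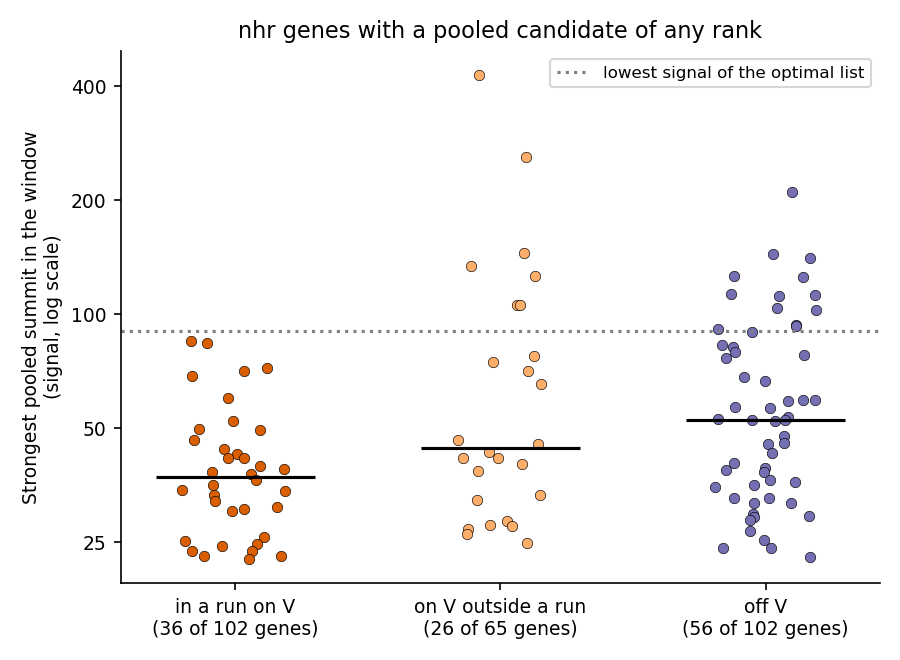
Signal of the strongest pooled summit in the window, on a log axis, for each receptor gene with a candidate, in runs on V (36 genes), on V outside a run (26) and off V (56). Points are genes, horizontal bars are medians (37.2, 44.5 and 52.7) and the dotted line is the lowest signal of the optimal list. All points of the runs lie under the line.

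Other genes among the receptors in these runs were counted too. Of 57 other protein-coding genes that overlap the spans of the runs, none had an optimal peak (exact interval to 6.27%, floor of 3 counts 5.26%), and 13 (22.8%) had a candidate, against 4.00% and 32.6% of the 4827 other protein-coding genes on V. The interval includes 4.00%, so the absence of an optimal peak among these 57 cannot be told apart from the share on V. The spans held 1 optimal summit, at V:6993965-6994404 (signal 132), 2314 bp from the 5′ end of nhr-162 and so outside its window, a density of 0.226 per 100 kb, against 1.44 per 100 kb over V. Candidates of any rank were as dense in the spans as over V, at 24.4 and 24.3 per 100 kb. Repeated sequence was counted in the window of the outermost 5′ end of each gene alone. In 11 of 102 (10.8%) fewer than 90% of the words of 32 bases occurred once in the genome, against 13.8% of receptor genes on V outside a run, 15.7% of those off V and 14.5% of other protein-coding genes, and in none was the share under 50%. This measure was added after the counts were seen, and read length is not given in the sources used here. It counts exact words, so copies that differ slightly are not seen, and whether repeats bear on the peak counts was not tested. The number of 5′ ends, which sets how much sequence is searched, averaged 1.56 per gene in runs, 1.55 on V outside a run and 1.93 off V, with 1.49 for other protein-coding genes.

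By chromosome, X held the largest share of receptor genes with a peak. There, 6 of 23 receptor genes had one (26.1%, interval 10.2 to 48.4), against 6.87% of the 2708 other protein-coding genes on X. They were nhr-35, nhr-1, nhr-255, nhr-17, nhr-48 and nhr-14, and at nhr-255 the summit was in the tRNA gene described above. The peaks at nhr-17, nhr-48 and nhr-14 were each in the top list of a single replicate. By the replicates' own top lists, 7 receptor genes on X (30.4%) had a summit in replicate 3 and 4 (17.4%) in replicate 4. Other genes on X had one at 7.05% and 6.31%. The number of 5′ ends averaged 1.87 per receptor gene on X, against 1.52 for the other genes there. On IV the count was 4 of 33 (12.1%), against 4.99% of other genes, and comprised nhr-34, nhr-41, nhr-105 and nhr-43. On II, nhr-119 was the single gene of 15 (6.67%), against 5.33% of other genes. On I, nhr-85 and nhr-49 were 2 of 23 (8.70%), against 6.09%. On III none of 8 receptor genes had an optimal peak (exact interval to 36.9%), against 8.28% of other genes, and 6 of the 8 had a candidate, against 50% of other genes. These counts are small, and their intervals are wide.

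Just inside the optimal list were nhr-14 (rank 1804, signal 93.4), nhr-43 (rank 1822, 92.9) and nhr-49 (rank 1886, 91.3), and just outside it was nhr-40 (rank 1938, 89.9), a receptor of embryonic muscle development. The nhr-40 signal was 65.0 in replicate 3 and 26.6 in replicate 4, both within the range of the optimal receptor peaks. After it and the run members nhr-178 and nhr-237 came nhr-27 (82.8), nhr-88 (81.8), nhr-66 (79.7), nhr-80 (78.2) and nhr-50 (77.8). The summit at nhr-80 was closer to H10E21.1 (292 bp) than to nhr-80 (611 bp). In all 98 receptor genes had a candidate below the optimal list, from 22.6 to 89.9 with a median of 39.2, and 151 had none. Over all 118 with a candidate, the median signal was 43.2, against 39.4 over all protein-coding genes with one.

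Genes that work with the receptors were read from lists chosen with earlier results of these data known. Of 5 nuclear receptors without an nhr- name (daf-12, unc-55, fax-1, odr-7 and sex-1), none had an optimal peak, and sex-1 (57.9) and daf-12 (39.3) had candidates. Of 6 genes for the steroid ligand of DAF-12, none had an optimal peak and 2 had a candidate, and of 5 moulting genes none had one and 2 had a candidate. Of 7 co-regulators and partners, 3 had an optimal peak. Over all protein-coding genes, 5.69% had an optimal peak and 40.1% a candidate, so no optimal peak in lists this short is near that share.

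The strongest of these was at cbp-1, which encodes the CBP/p300 acetyltransferase, at III:9765476-9765787, with a signal of 387 in replicate 3, 197 in replicate 4 and 580 in the pooled list (rank 30). The peak at hsp-90, whose vertebrate counterpart chaperones steroid receptors, had 195 in replicate 3, 111.3 in replicate 4 and 307 in the pooled list. That at din-1, a co-repressor of DAF-12, had 173 in replicate 3, 64.7 in replicate 4 and 238 in the pooled list. Each of the 3 summits was also in the window of another gene, closer than the 864, 397 and 693 bp at which they lay upstream of cbp-1, hsp-90 and din-1. The Mediator subunit gene mdt-15, a partner of NHR-49, had a candidate of 42.3.

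Among 9 genes known to be controlled by NHR-49, NHR-80, NHR-10 or NHR-68, 3 had an optimal peak. They were acs-2, an acyl-CoA synthetase of fat breakdown (88.0 in replicate 3, 48.6 in replicate 4 and 141 in the pooled list), and acdh-1 and hach-1 of the propionate shunt (pooled signals 141 and 95.4). The desaturase genes fat-5 and fat-6 had candidates of 43.2 and 56.7, and fat-7 had none. These lists are short, and with 5.69% of all protein-coding genes carrying a peak, a count of 3 rests on single genes.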

How the data were processed

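Peak lists on build ce11 were used, 1 optimal, 1 pooled and 1 for each of 2 replicates. The authors deposited notes that trace each replicate's candidate list to that replicate's alignment, and the pooled list to both alignments, each with a further file named only by an accession. The file names describe the optimal list as thresholded by irreproducible discovery rate (IDR). Each list holds a peak signal and a −log10 q-value deposited by the authors, and the caller, aligner and threshold are not given in the sources used here. The ce10 lists were not used. The antibody field names ZTF-26 and the description anti-GFP.

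Summits were assigned to 5′ ends of Ensembl release 115 (WBcel235), and sequence was read from the RefSeq genome of the same build. A replicate's value at a peak is its strongest candidate overlapping by at least 1 bp. Runs on V, the gene lists and the words searched were chosen with earlier results of these data known. Named genes were all receptors with an optimal peak, the 8 strongest below it, genes sharing those summits, and the lists. Names of the further run members with strong candidates, and of those in a single replicate's list, were chosen after their values were seen. Assignment was tested on simulated data. Python 3.11.15 with pandas 2.3.3 and SciPy 1.17.1 was used. The summit sequence at nhr-35 is not reported here.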

Additional observations from a re-analysis of the deposited data

How the results depend on the processing

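No receptor gene in a run on V had an optimal summit under any alternative setting. Settings able to add one were 2000 bp upstream, any overlap of the peak interval, each replicate alone and gaps of 50 kb (113 genes). The other settings draw on a part of the same windows, peaks or run members, so they could not have added a summit. They were 500 bp upstream, the outermost 5′ end of a gene alone, the 965 strongest optimal peaks and gaps of 10 kb (94 genes). The count of receptor genes with a peak was 16 to 22 under the other windows, 17 to 21 with 1 replicate, and 18 both with peaks near tRNA genes left out and with each summit given to the nearest protein-coding gene alone, the last 2 chosen after seeing the data. Among the 965 strongest peaks it fell to 7, with 7 distinct peaks, 4 genes on V and 3 off V. The background share was 7.62% with 2000 bp upstream, 4.44% with 500 bp, 5.16% with the outermost 5′ end, 6.21% by interval overlap, 3.13% among the 965 strongest, 5.33% without peaks near tRNA genes and 4.48% for the nearest gene alone. With 2000 bp upstream, 22 receptor genes (8.18%) had a peak. Replicate ratios stayed within the spread across members when a replicate peak had to cover 50% of the pooled peak or was the one with the nearest summit. Candidates of any rank have no version among the 965 strongest peaks. No paired analysis was possible because the samples form 1 group. Depth is unknown, so no limit of detection can be given.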
